A study of Mus musculus with 8 samples.

Results

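*Tra2a* and *Tra2b* are the paralogous genes that encode the Tra2α and Tra2β splicing proteins. Their 2 rows, found by symbol among the 40840 genes of the count tables, were followed through RNAseq of whole mouse testes taken at P12 (12 days after birth). The testes came from 4 wild type and 4 *Tra2b-cPEko* mice with the replicate letters A to D, and the methods call the mice biologically independent. The question here was how the levels of both genes, their ratio and their summed pool differed between the genotypes.

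In the study's terms a wild type mouse was Tra2bPE fl/+ with no Cre, so that 1 of its *Tra2b* alleles already carried loxP sites around the poison exon (PE). A *Tra2b-cPEko* mouse was fl/- and carried *Vasa-Cre*. One PE had been deleted in the father's germ line and was therefore missing from every cell, and the other was floxed and exposed to a Cre that is driven by a germ cell promoter. Sertoli, Leydig and other somatic cells of these testes thus kept 1 floxed PE, and they contributed RNA to every library. The floxed allele was made by CRISPR in C57BL/6J embryos, and the mice were kept on that background. The *Vasa-Cre* line was obtained on an FVB background and backcrossed to C57BL/6J. Of the 2 genotypes only *Tra2b-cPEko* carried it, so effects of the transgene and of the deletion cannot be told apart here. Cell types were not separated, and 12-day-old testes could differ slightly in exact age, which the methods name as a source of variation in cell types.

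Tra2 proteins bind GAA-rich RNA through an RNA recognition motif that lies between arginine and serine-rich domains, and they activate the splicing of nearby exons. Both genes hold a PE, an exon whose inclusion puts a premature stop codon into the mRNA, so that the transcript makes no full protein and can be destroyed by nonsense-mediated mRNA decay (NMD). Tra2 proteins are known to promote splicing of the PEs of their own gene and of the paralogue, which gives both genes a negative feedback on protein amount.

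On GRCm39 *Tra2a* (ENSMUSG00000029817.13) lies at chr6:49220793-49241017 on the minus strand, and *Tra2b* (ENSMUSG00000022858.18) at chr16:22063266-22084824, also on the minus strand. In GENCODE vM39 *Tra2a* has 21 transcripts, of which 8 are annotated as NMD targets, and *Tra2b* has 52, of which 22 are. The annotated exon that matches the study's PE primer lies between exons 1 and 2 in both genes. It is 301 bases long in *Tra2a* (chr6:49229742-49230042) and 276 bases in *Tra2b* (chr16:22077736-22078011). Forms of it are in 5 of the 8 NMD transcripts of *Tra2a*. For *Tra2b* the 276-base exon itself is in 13 of the 22. Annotated forms of the *Tra2b* exon run from 229 to 397 bases, and transcripts with its other forms are not in that count. The PEs are shown from their first base to the stop codon that they bring in, since this stretch is what makes them poisonous. GAA triplets, the core of the Tra2 binding motif, are in capitals.
Tra2a PE, chr6:49229899-49230042, minus strand: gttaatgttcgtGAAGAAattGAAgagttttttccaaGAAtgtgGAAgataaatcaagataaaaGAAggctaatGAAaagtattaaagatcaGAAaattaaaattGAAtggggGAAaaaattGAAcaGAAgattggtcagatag
Tra2b PE, chr16:22077931-22078011, minus strand: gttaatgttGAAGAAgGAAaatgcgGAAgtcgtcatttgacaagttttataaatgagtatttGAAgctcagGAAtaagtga

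Both PEs follow 36 coding bases of exon 1 and open with the same 9 bases, gttaatgtt. The reading frame of *Tra2a* ran on for 47 codons to a TAG, and that of *Tra2b* for 26 codons to a TGA. With gaps left out, the PEs were identical at 73.2% of 254 aligned bases and the canonical coding sequences (Tra2a-201 and Tra2b-221) at 68.4% of 811. Exons 2, 4 and 5 had the same lengths in both genes, of 134, 189 and 116 bases.

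The PEs were dense in GAA on the transcribed strand. The *Tra2a* PE held 32 GAA triplets (10.6 per 100 bases) and the *Tra2b* PE held 28 (10.1 per 100 bases), against 2 and 0 on the other strand. Among 4249 internal exons of 276 to 312 bases in protein-coding genes, 98.9% held a GAA and the median was 1.98 per 100 bases. Only 4 of these exons, or 0.0941%, were as dense as the *Tra2a* PE, and 7 (0.165%) as dense as the *Tra2b* PE, counts that include these PEs and their annotated longer or shorter forms. AGAA, which contains GAA, occurred 13 times in the *Tra2a* PE and 12 times in the *Tra2b* PE, and 83.0% of the exons of that length held it, with a median of 0.680 per 100 bases. These are counts of letters, and binding was not measured here.

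The deletion concerns *Tra2b* alone. The CRISPR guides that placed the loxP sites are shown because they bound the segment that Cre removes. Each is given 5′ to 3′ with its PAM in capitals.
Guide 1, upstream: gatctgttcaacccacccttGGG
Guide 2, upstream: ggtgggttgaacagatctatAGG
Guide 3, downstream: gtggtcttcttaatgcccttTGG
Guide 4, downstream: catgcattttgagagtccaaAGG
Guides 1 and 2 cut 541 and 524 bases upstream of the *Tra2b* PE, and guides 3 and 4 cut 313 and 318 bases downstream of it, all in the first intron. The inner cut sites lay 1113 bases apart. No guide cut lay in a coding exon, and *Tra2a*, on another chromosome, was not targeted.

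**Figure D1:**
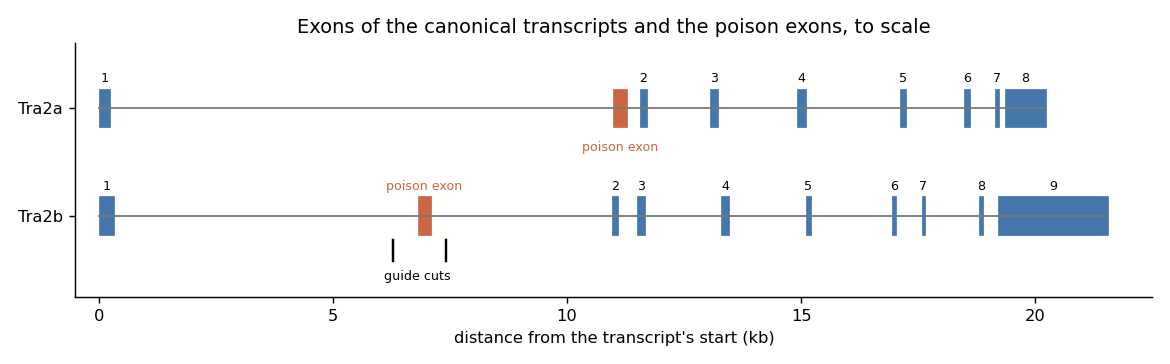
Exons (blue, numbered) of the canonical *Tra2a* and *Tra2b* transcripts and their poison exons (orange) by distance from the start of the transcript, in kb, drawn to scale, with the cut sites of the 4 guides as black ticks. The poison exon lies in the first intron of both genes, next to exon 2 in *Tra2a* and farther from it in *Tra2b*.

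The authors deposited raw read counts per gene, and each library held 36757386 to 59101569 reads on genes. Squared differences in counts between any 2 mice of 1 genotype averaged 6.24 to 19.1 times what counting error gives (chi-square per degree of freedom). No 2 libraries of 1 genotype were therefore copies. All 7 germ cell markers looked for were detected, and their summed level was 1680 to 2105 CPM in wild type and 1687 to 1771 CPM in *Tra2b-cPEko* testes. CPM scales each count to a total of 1000000 reads on genes, after the TMM adjustment of library size. The summed level of 7 macrophage markers did not overlap (111.5 to 134.5 CPM in wild type against 134.6 to 164.5 CPM in *Tra2b-cPEko*), and 6 genes of the epididymal epithelium summed to 140.5 CPM in *Tra2b-cPEko* C against at most 0.682 CPM in the other 7 libraries. By mean log2 CPM the macrophage markers did overlap, with 3.992 in wild type C and 3.975 in *Tra2b-cPEko* D. All 7 had a positive log2 fold change (median 0.28), and DESeq2 called 2, against 2.79% of all tested genes. Summed levels overlapped for peritubular cells (6 of 6 markers higher, median 0.10) and Leydig cells (5 of 7 higher, median 0.40, 1 DESeq2 call). They also overlapped for leptotene and zygotene spermatocytes (9 of 12 lower, median -0.09, 1 DESeq2 call). For 6 markers of differentiating spermatogonia the summed levels overlapped (519.3 to 569.2 CPM in wild type against 464.5 to 525.7 CPM in *Tra2b-cPEko*). Their mean log2 CPM did not, at 6.28 to 6.38 in wild type and 6.11 to 6.21 in *Tra2b-cPEko*. All 6 had a negative log2 fold change, and *Sohlh1*, a transcription factor gene of these cells, was called (-0.34 ± 0.05, edgeR adjusted p = 0.0341). The part of these differences in the results was not tested, and results for both *Tra2* genes, their ratio, their pool and the gene lists are also given without *Tra2b-cPEko* C.

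*Tra2a* fell in *Tra2b-cPEko* testes. Wild type mice A to D had 6116, 6092, 5737 and 6564 *Tra2a* reads, which is 138, 144, 121 and 111 CPM. *Tra2b-cPEko* mice A to D had 3461, 2686, 3044 and 2584 reads, or 69.4, 73.2, 65.1 and 70.4 CPM. Every *Tra2b-cPEko* mouse was below every wild type mouse, and the highest of them (B) stood well under the lowest wild type mouse (D). The means were 129 ± 15.3 CPM in wild type and 69.5 ± 3.36 CPM in *Tra2b-cPEko* (SD, n = 4 each), a decrease of 46.0%. In edgeR's quasi-likelihood test the log2 fold change was -0.89 ± 0.08 (SE), with an adjusted p of 0.00231 over 19104 genes. This was the smallest p of all genes tested. Without *Tra2b-cPEko* C the log2 fold change was -0.86 (edgeR adjusted p = 0.00792). Of the 10850 genes that averaged 10 CPM or more, 4 had a lower log2 fold change. In whole testis fewer cells of a type cannot be told apart from less RNA per cell.

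*Tra2b* was higher in every *Tra2b-cPEko* mouse than in any wild type mouse, by much less. Wild type mice A to D had 6993, 7006, 7404 and 10367 *Tra2b* reads, or 158, 166, 156 and 176 CPM. *Tra2b-cPEko* mice A to D had 9970, 6987, 8986 and 7670 reads, or 199.9, 190.3, 192 and 209 CPM. The groups did not overlap in CPM, with wild type D, the highest of its group, the nearest to the *Tra2b-cPEko* mice. The means were 164 ± 8.93 CPM in wild type and 198 ± 8.49 CPM in *Tra2b-cPEko* (SD, n = 4 each), a difference of 20.7%. The log2 fold change was 0.27 ± 0.05 (SE) and its adjusted p in edgeR was 0.0552, which did not pass the threshold of 0.05. *Tra2b* ranked 35 by p among all genes tested. With DESeq2, the tool the study used, the adjusted p was 1.95e-04 and the log2 fold change was the same to 2 decimals. With the replicate letter as a block edgeR gave an adjusted p of 0.0452, although the letters were not found to pair the mice. Leaving out each mouse in turn gave adjusted p values from 0.0487 (without *Tra2b-cPEko* B; 0.0488 without wild type D) to 0.162 (without *Tra2b-cPEko* D), and 0.108 without *Tra2b-cPEko* C.

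**Figure D2:**
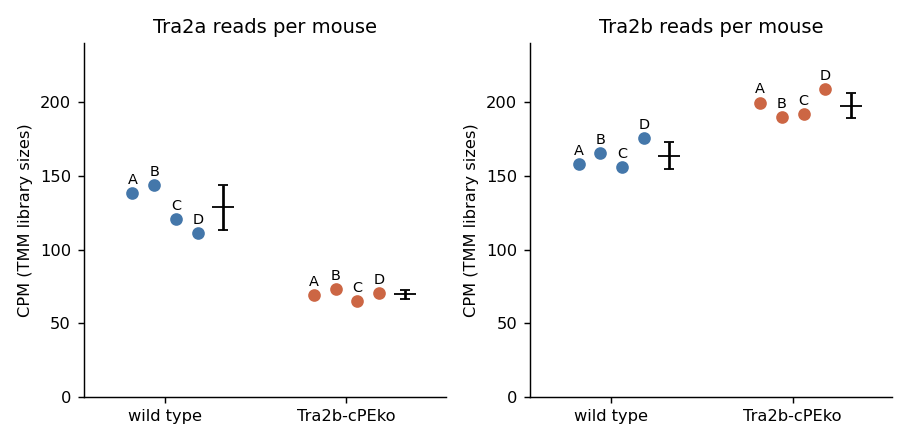
*Tra2a* (left) and *Tra2b* (right) in CPM, for each wild type (blue) and *Tra2b-cPEko* (orange) mouse with its replicate letter, and the mean with its SD (black, n = 4). *Tra2a* has 111 to 144 CPM in wild type against 65.1 to 73.2 CPM in *Tra2b-cPEko* mice, and *Tra2b* has 156 to 176 CPM against 190.3 to 209 CPM.

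These calls can be read against the whole transcriptome. In edgeR 30 genes (0.157% of those tested) were called, 25 (0.131%) higher and 5 (0.0262%) lower in *Tra2b-cPEko*, and *Tra2a* was 1 of the lower ones. DESeq2 called 507 genes (2.79%), 301 (1.66%) higher and 206 (1.14%) lower, with *Tra2a* among the lower and *Tra2b* among the higher ones. Genotypes without overlap in log2 CPM, as seen for both members, were found in 8.54% of tested genes, 4.36% higher and 4.18% lower in *Tra2b-cPEko*. The median log2 fold change of all tested genes was -0.0011.

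Counting error was a small part of the spread between mice. For *Tra2a* the counts alone would give a coefficient of variation of 1.28% (wild type) and 1.86% (*Tra2b-cPEko*), whereas 11.9% and 4.83% were observed. For *Tra2b* counting gives 1.14% and 1.10%, and 5.45% and 4.29% were observed. *Tra2a* in wild type was thus the most variable of these 4 sets of values, with mice A and B above mice C and D.

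The same wild type mice differed in germ cell markers. The mean log2 CPM of the 7 germ cell markers (*Ddx4*, *Dazl*, *Tdrd1*, *Mov10l1*, *Tex101*, *Rbm46* and *Mael*) was 7.88 and 7.83 in wild type A and B, 7.60 and 7.61 in wild type C and D, and between 7.58 and 7.66 in *Tra2b-cPEko* mice. Pachytene spermatocyte markers were likewise highest in wild type A and B, with a sum of 514 and 551 CPM against 264 and 316 CPM in C and D and 300.4 to 392 CPM in *Tra2b-cPEko*. Wild type C and D, whose mean log2 CPM of germ cell markers lay within the range of the *Tra2b-cPEko* mice, had 121 and 111 CPM of *Tra2a*, above all 4 *Tra2b-cPEko* mice. By summed CPM wild type C lay just under that range, with 1680 CPM of germ cell markers against 1687 to 1771 CPM, and it was also lowest in pachytene markers. In mean log2 CPM of differentiating spermatogonia markers wild type C and D were the highest of all libraries. They had 6.38 and 6.36, against 6.11 to 6.21 in *Tra2b-cPEko* mice. By summed CPM wild type C was highest (569.2 CPM), and wild type A (561.4 CPM) stood above wild type D (551.9 CPM). The part of cell composition in the *Tra2a* difference was not tested. Of the 7 germ cell markers 6 had a negative log2 fold change (median -0.12), and *Mael* was called by DESeq2 (-0.22 ± 0.06, adjusted p = 0.0381) though not by edgeR (0.140). Taken relative to the germ cell marker mean, a scale added after the data were seen, *Tra2a* differed by -0.78 and *Tra2b* by 0.38 on the log2 scale, again without overlap for either gene (exact permutation p = 0.0286 for each, the smallest that 70 arrangements can give, and 0.0429 after adjustment over the 3 tests on this scale). *Mael* is part of this scale. Without *Tra2b-cPEko* C the differences were -0.73 (exact permutation p = 0.0286) and 0.40 (exact permutation p = 0.0571).

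The ratio of *Tra2a* to *Tra2b* reads needs no library size, since both genes were counted in the same library. The ratio was 0.875, 0.870, 0.775 and 0.633 in wild type A to D and 0.347, 0.384, 0.339 and 0.337 in *Tra2b-cPEko* A to D. The ratio fell from 0.788 ± 0.113 to 0.352 ± 0.0222 (SD, n = 4 each), with no overlap. On the log2 scale the difference was -1.15, and the 16 differences between a *Tra2b-cPEko* and a wild type mouse ran from -1.38 to -0.72. The two-sided exact permutation p was 0.0286, the smallest this design allows, and it was the same after adjustment over the 2 exact tests of the design (ratio and pool per length). Leaving out each mouse in turn gave differences from -1.25 to -1.10, and -1.14 without *Tra2b-cPEko* C.

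Put as a share, *Tra2a* reads made up 46.7%, 46.5%, 43.7% and 38.8% of the Tra2 reads in wild type A to D and 25.8%, 27.8%, 25.3% and 25.2% in *Tra2b-cPEko* A to D. The 95% Wilson interval, which covers counting error only, was 38.0% to 39.5% for the lowest wild type share (D) and 26.9% to 28.7% for the highest *Tra2b-cPEko* share (B). Every wild type share lay above every *Tra2b-cPEko* share by more than these intervals.

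The pool of Tra2 reads did not pass the test. *Tra2a* and *Tra2b* reads summed to 297, 310, 276 and 287 CPM in wild type A to D and to 269, 263, 257 and 279 CPM in *Tra2b-cPEko* A to D. The groups overlapped, since *Tra2b-cPEko* D stood above wild type C. Entered as 1 feature in edgeR's fit, the pool had a log2 fold change of -0.13 ± 0.05 (SE) with an adjusted p of 0.226, which did not pass the threshold, nor did it in DESeq2 (adjusted p = 0.114) or without *Tra2b-cPEko* C (edgeR adjusted p = 0.481). The mean loss of *Tra2a* was 59.1 CPM and the mean gain of *Tra2b* 34.0 CPM, which is 57.5% of the loss. Relative to the germ cell markers the log2 difference of the pool was -0.03, with overlap (exact permutation p = 0.657), and 0.0058 without *Tra2b-cPEko* C.

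Reads count long transcripts more than short ones, so the pool was also expressed per length. With the length of all annotated exon bases (7347 for *Tra2a* and 9669 for *Tra2b*), the pool was 35.2, 36.8, 32.5 and 33.3 RPKM (CPM divided by the length in kilobases, summed over both genes) in wild type A to D and 30.1, 29.6, 28.7 and 31.2 RPKM in *Tra2b-cPEko* A to D. On this scale the groups did not overlap, and the pool per length fell from 34.4 ± 1.90 to 29.9 ± 1.02 RPKM (SD, n = 4 each). Of all tested genes 8.54% were without overlap in log2 CPM, 4.18% of them lower in *Tra2b-cPEko* as a share of all. The log2 difference of the pool per length was -0.20, with pairwise differences from -0.36 to -0.06. Its exact permutation p was 0.0286, the smallest that 70 arrangements can give. Without *Tra2b-cPEko* C the log2 difference was -0.18 with an exact permutation p of 0.0571, which did not pass. The difference was -0.28 with the length of the longest coding transcript and -0.15 with that of the coding sequence. The gain of *Tra2b* was 43.7% of the loss of *Tra2a* with all exon bases, 32.6% with the longest transcript and 52.4% with the coding sequence.

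**Figure D3:**
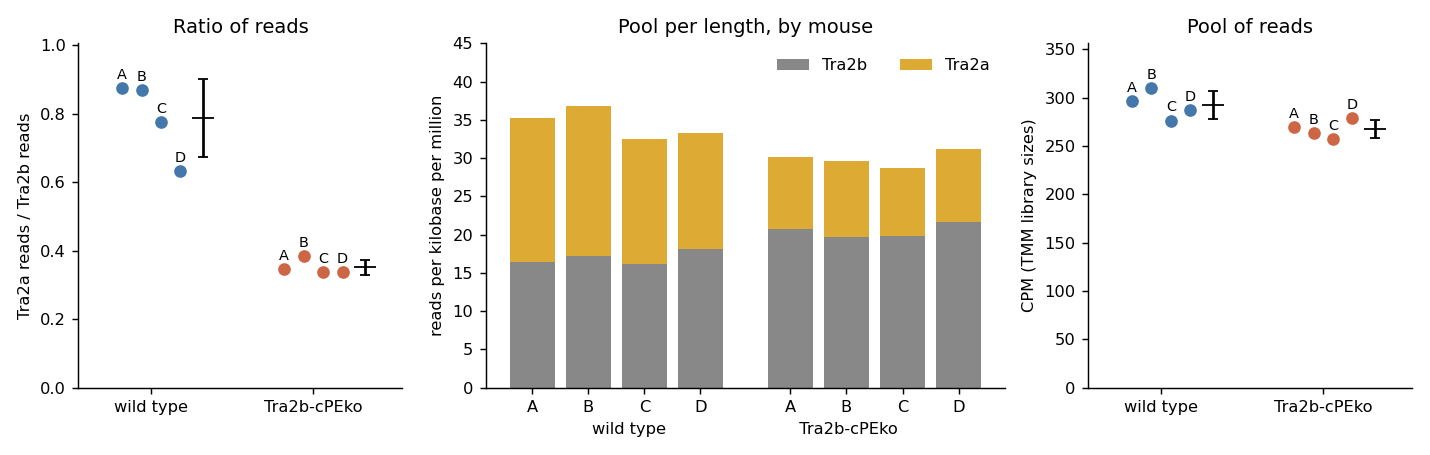
For each mouse, the ratio of *Tra2a* to *Tra2b* reads (left), the pool of both genes per length of annotated exons in RPKM, split by gene (middle), and the summed reads in CPM (right), with means and SD (black, n = 4) in the outer panels. The ratio is 0.633 to 0.875 in wild type and 0.337 to 0.384 in *Tra2b-cPEko* mice, whereas the summed reads overlap at 276 CPM (wild type C) and 279 CPM (*Tra2b-cPEko* D).

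Which paralogue was the more abundant in wild type depended on the length used. Per length of all exon bases *Tra2a* was at 17.5 ± 2.08 RPKM and *Tra2b* at 16.9 ± 0.924 RPKM, a difference within the spread between mice, and their ratio per length was 1.04 ± 0.149. It was 1.39 ± 0.199 with the longest coding transcripts (2002 and 3528 bases) and 0.865 ± 0.124 with the coding sequences (927 and 1017 bases). In *Tra2b-cPEko* testes *Tra2b* was the higher of both on all 3 bases, with ratios per length of 0.463 ± 0.0292, 0.620 ± 0.0391 and 0.386 ± 0.0244, respectively (SD, n = 4).

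Counts over a whole gene do not separate PE-containing from productive mRNA. The *Tra2b* PE makes up 2.85% of the annotated exon bases of its gene and the *Tra2a* PE 4.10%, and reads on them were counted with the rest. How the counting treated strand is not given in the sources used here. On the other strand GENCODE places Gm43980 within *Tra2a* and Gm61009 across the start of *Tra2b*, and neither symbol is among the names in the count tables. For *Tra2b*, 4 processed pseudogenes (Gm10254, Gm14639, Gm6439 and Gm11957) match a transcript at 95% or more, and the summary lines show that reads aligned to more than 1 place were not counted on genes, in either genotype. No such copy was found for *Tra2a*.

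The SR protein family, to which the Tra2 proteins are related, gave the scale for these levels. Per length of all exon bases *Srsf2* (126 RPKM) and *Srsf1* (80.6 RPKM) headed the 13 genes in wild type, and *Tra2a* and *Tra2b* took places 9 and 10, between *Srsf11* (29.8 RPKM) and *Srsf9* (15.4 RPKM). *Srsf9* (SD 0.630) and *Tra2b* (SD 0.924) were close in that order. In *Tra2b-cPEko* testes *Tra2b* stood at place 9 with 20.5 RPKM and *Tra2a* at place 12 with 9.46 RPKM, above *Srsf12* (0.495 RPKM) alone. With the longest coding transcript or the coding sequence as the length, *Tra2a* was also at place 12 in *Tra2b-cPEko*, from places 9 and 11 in wild type.

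None of the 11 other SR protein family genes was called by edgeR or DESeq2. Their median log2 fold change was -0.06, against -0.0011 for all tested genes, and 2 had an unadjusted p under 0.05 in edgeR, where 15.3% of all tested genes did. The genotypes did not overlap for 3 of the 11 (*Srsf3*, *Srsf7* and *Srsf10*), all lower in *Tra2b-cPEko*. Of all tested genes 4.18% were lower without overlap. The lowest of the 11 was *Srsf7* (log2 fold change -0.10 ± 0.04, edgeR adjusted p = 0.258) and the highest *Srsf11* (0.06 ± 0.04, edgeR adjusted p = 0.529). Both *Tra2* genes thus lay outside the range of this family, *Tra2a* below it and *Tra2b* above it.

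The kinases that phosphorylate SR and Tra2 proteins were not called either. The median of the 7 *Clk* and *Srpk* genes was -0.02, 1 had an unadjusted p under 0.05, and values ran from -0.12 ± 0.08 for *Clk2* to 0.14 ± 0.05 for *Srpk2* (edgeR adjusted p = 0.473 and 0.204).

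No gene of NMD or the exon junction complex, the machinery that recognises PE-containing mRNA, was called by edgeR or DESeq2. The median of these 18 genes was -0.03 and 5 had an unadjusted p under 0.05 in edgeR, where 15.3% of all tested genes did. Besides *Magohb* and *Upf3b* these were the exon junction core genes *Eif4a3* (-0.11 ± 0.04), *Magoh* (-0.11 ± 0.05) and *Rbm8a* (-0.14 ± 0.05), all lower in *Tra2b-cPEko*. The genotypes did not overlap for 3 of the 18 (*Eif4a3* and *Magoh* lower, *Upf3b* higher), against 8.54% of all tested genes. *Magohb*, which encodes a core protein of the exon junction complex, was lowest at -0.26 ± 0.09 (edgeR adjusted p = 0.199). *Upf3b*, an X-linked NMD factor, was highest at 0.13 ± 0.04 (edgeR adjusted p = 0.184).

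Of 14 genes for protein partners of Tra2, such as the RBMX family and the Sam68 relatives, 13 could be tested and *Rbmy* was too low. None was called by either tool, with a median of 0.00071 and 3 unadjusted p values under 0.05. *Khdrbs3*, which encodes the Sam68-like protein T-STAR, was lowest (-0.27 ± 0.10, edgeR adjusted p = 0.257), and *Safb2*, for a scaffold attachment factor, was highest (0.13 ± 0.05, edgeR adjusted p = 0.272).

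Among 10 genes that the study names as targets of Tra2β, which it chose on these samples, so that they are not independent evidence, the median was -0.0015. *Malat1*, a nuclear noncoding RNA, rose from 503 ± 33.3 to 722 ± 92.9 CPM (log2 fold change 0.52 ± 0.08, edgeR adjusted p = 0.0475), a call that 10 of 16 alternatives did not keep but the fit without *Tra2b-cPEko* C did (0.57, edgeR adjusted p = 0.0334). *Ptbp2*, which encodes a splicing repressor of neurons and germ cells, was at 101 ± 11.4 CPM in wild type and 78.2 ± 1.66 CPM in *Tra2b-cPEko* (-0.37 ± 0.07, edgeR adjusted p = 0.0601, DESeq2 adjusted p = 3.32e-04). The other 8 were called by neither tool. The study named those 8 for changed inclusion of an exon, which counts over a whole gene do not measure. It also describes the *Nasp* exon as a target known from earlier work. Without *Tra2b-cPEko* C *Ptbp2* was at -0.36 (edgeR adjusted p = 0.180), and edgeR called 1 gene of this list and 0 of the other 4 lists.

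**Figure D4:**
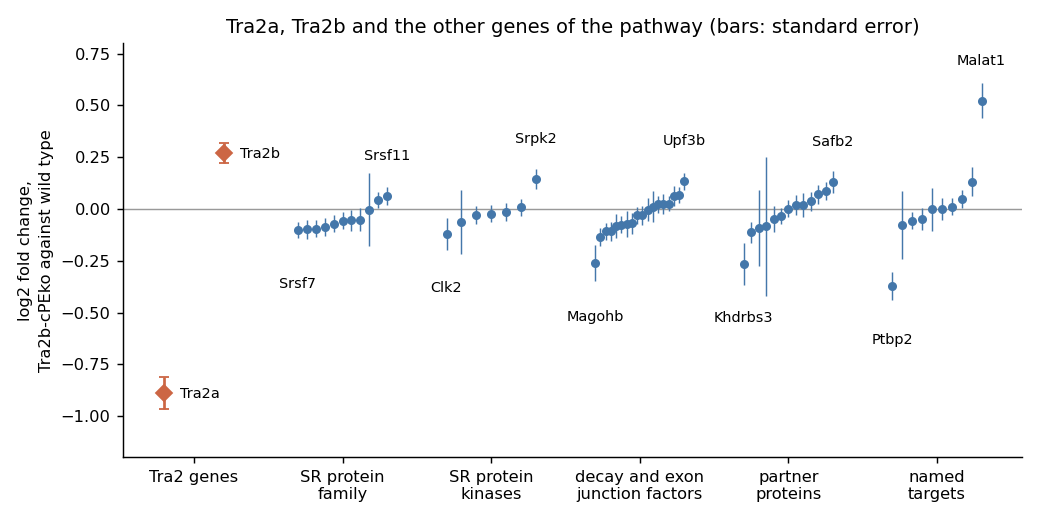
Log2 fold change of *Tra2b-cPEko* against wild type from edgeR, with its standard error, for *Tra2a* and *Tra2b* (orange diamonds) and for the tested genes of 5 lists (blue points, ordered within a list), with the lowest and highest of each list named. *Tra2a* at -0.89 lies below every other gene shown, and *Tra2b* at 0.27 is exceeded by *Malat1* alone.

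The genes beside the 2 loci were examined to see whether the differences reached beyond them. Among the 5 tested genes on each side of *Tra2b*, log2 fold changes ran from -0.20 to 0.27 and neither tool called a gene. The genotypes did not overlap for 1 of these 10 (*Liph*), against 8.54% of all tested genes. Among the 10 around *Tra2a* edgeR called none, with values from -0.23 to 2.72, and DESeq2 called 2, where it called 2.79% of all tested genes. These were *Igf2bp3*, an RNA binding protein gene 28.3 kb away, at 25.5 ± 1.30 CPM in wild type and 21.8 ± 0.354 CPM in *Tra2b-cPEko* (log2 fold change -0.23 ± 0.06, DESeq2 adjusted p = 0.0135), and the low-count gene *Gm38805* (0.98 ± 0.22, DESeq2 adjusted p = 0.0266). The same 2 were the neighbours of *Tra2a* without overlap between the genotypes. The highest value was that of *Gpnmb*, which rested on *Tra2b-cPEko* C, with 5.34 CPM against at most 0.681 CPM in the other *Tra2b-cPEko* mice. Both *Tra2* genes have a member of the *Igf2bp* family as their nearest tested gene on the lower side, *Igf2bp2* lying 80.8 kb from *Tra2b* with a log2 fold change of 0.10 ± 0.07.

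**Figure D5:**
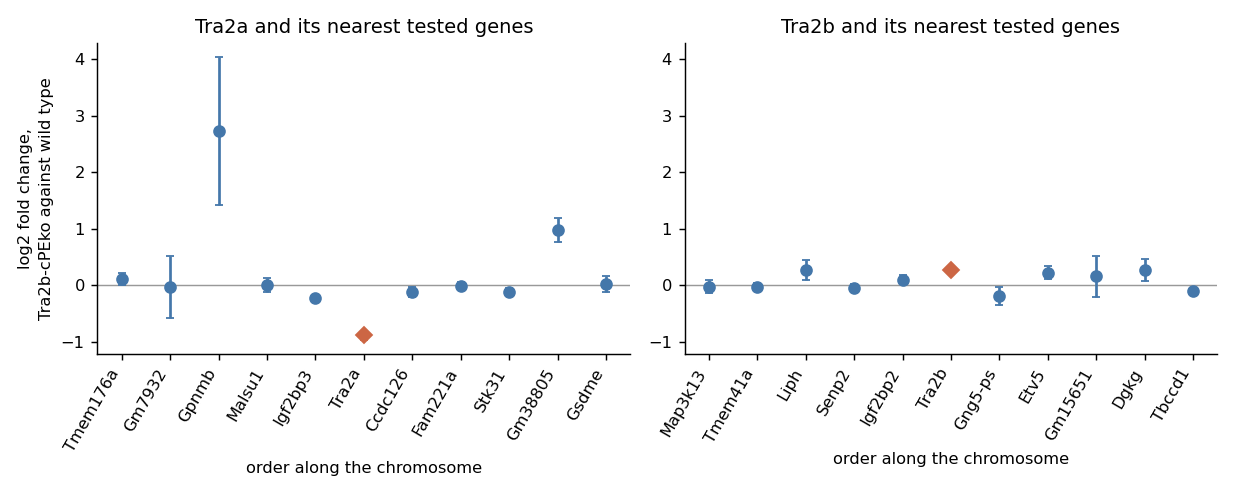
Log2 fold change with its standard error for *Tra2a* (left) and *Tra2b* (right), as orange diamonds, and for the 5 nearest tested genes on each side (blue), in their order along the chromosome. *Gpnmb* (2.72) and *Gm38805* (0.98), both under 1 CPM in wild type, stand off the line among the neighbours of *Tra2a*, and all neighbours of *Tra2b* lie between -0.20 and 0.27.

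Likeness of pattern was measured as the root mean square difference between log2 CPM profiles over the 8 libraries, each centred on its own mean, over genes that averaged 10 CPM or more. The 5 genes nearest to *Tra2a* were *Adad2*, *Fam178b*, *Cpeb1*, *Majin* and *Tuba3b*, with differences of 0.23 to 0.27 against a median of 0.46 over 10849 genes. *Tuba3b*, a tubulin gene, was itself called by edgeR (log2 fold change -0.38 ± 0.06, adjusted p = 0.0421), but 9 of 16 alternatives did not call it, among them the fit without *Tra2b-cPEko* C (adjusted p = 0.108), and DESeq2 called all 5. The 5 nearest to *Tra2b* were *Mto1*, *AA386476*, *LOC108167553*, *Iffo1* and *Gm26555*, with differences of 0.046 to 0.056 against a median of 0.17. The 5 nearest to the mirror image of *Tra2a* were *LOC115489417*, *Gm20559*, *LOC118568438*, *Gm52520* and *Zfp536*, with differences of 0.15 to 0.21. Of these, edgeR called *Gm20559* (adjusted p = 0.0103), *LOC118568438* and *Gm52520* (0.0329 each), and *LOC118568438* lost its call without *Tra2b-cPEko* C (0.105). *Tra2b* was number 135 in that order, at 0.32. All these genes were picked by their profiles in the same 8 libraries. Calls between the genotypes therefore follow in large part from the choice and are not independent evidence. Over all tested genes DESeq2 called 2.79% and edgeR 0.157%.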

How the data were processed

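Per the study's methods, total RNA of whole P12 testes was made into stranded mRNA libraries. The authors deposited raw counts per gene, 1 table per mouse, with 40840 symbols and 5 summary lines that were left out of all tests (12.4% to 13.6% of reads lay outside features). The submitters' processing notes list HISAT2 2.2.1, SAMtools 1.7.1, HTSeq 2.0.2 and GRCm39, and the methods also name Salmon, which does not write such lines. Counts were analysed with edgeR 4.0.16 in R 4.3.3 (filterByExpr with least count 10 and total 15, TMM factors, robust quasi-likelihood test with genotype as the only term, Benjamini-Hochberg over 19104 genes, threshold 0.05). For the pool the rows *Tra2a* and *Tra2b* were replaced by their sum. The ratio and the pool per length were tested by two-sided exact permutation over 70 arrangements. Alternatives were DESeq2 1.42.0, limma-voom (limma 3.58.1), other factors and filters, estimation that was not robust, a block for the replicate letter, and fits without each mouse. Lengths, neighbours and sequences came from GENCODE vM39 on GRCm39, in which 32487 of the symbols were found by name, copies from BLAST 2.17.0 (95% identity or more across 50% or more of a transcript), and guide and primer sequences from the study's supplement.

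The genes named by rule include both members and list genes called by edgeR or DESeq2. They include the highest and lowest of each list among genes averaging 10 CPM or more. The 5 tested neighbours on each side, overlapping genes and copies, and the 5 genes of most similar pattern were also named by rule. Other list and marker genes are named only where their level, overlap, call or unadjusted p is given. The members and lists were chosen with earlier results of these data known. Deviations of same-letter mice correlated at 0.03, -0.14, -0.04 and 0.12 for A to D, so the letters were not taken to pair the mice. Splicing and protein were not analysed here.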

Additional observations from a re-analysis of the deposited data

Results flagged for a closer look

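Dixon's test at the 95% level was run on 100 groups of 4 mice. It covered both *Tra2* genes, their ratio and pool and the other genes named by rule. In 3 of these groups 1 mouse stood apart from the rest of its group, where chance gives about 5. None of these was a value of *Tra2a*, *Tra2b*, the ratio or the pool. *Gpnmb*, a neighbour of *Tra2a*, was at 5.34 CPM in *Tra2b-cPEko* C and between 0.136 and 0.681 CPM in the other *Tra2b-cPEko* mice. *Iffo1*, a gene with a pattern like that of *Tra2b*, was at 73.7 CPM in *Tra2b-cPEko* B and between 80.8 and 82.2 CPM in the others. *Magohb* was at 11.8 CPM in *Tra2b-cPEko* D and between 9.49 and 9.70 CPM in the others.

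Among the summary lines, which no comparison of genes used, the share of reads outside annotated features averaged 13.4% in *Tra2b-cPEko* libraries, each above the wild type range of 12.4% to 12.8%. Its part in the results was not tested.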

How the results depend on the processing

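*Tra2a* kept its direction and passed the threshold under 16 alternatives, with log2 fold changes from -0.96 to -0.83 and adjusted p values up to 0.0333, and relative to the germ cell markers (-0.78, exact permutation p = 0.0286, 0.0429 adjusted over 3 tests). The pool of reads stayed negative and passed under none of these (-0.16 to -0.03). Relative to the germ cell markers and without *Tra2b-cPEko* C it was at 0.0058. *Tra2b* stayed positive under all (0.24 to 0.38) and passed under 7: upper-quartile factors (0.29, adjusted p = 0.0318), no low-count filter (0.26, 0.0128), DESeq2 (0.27, 1.95e-04), the replicate block (0.27, 0.0452), without wild type D (0.30, 0.0488), without *Tra2b-cPEko* B (0.29, 0.0487), and relative to the germ cell markers, an alternative chosen after seeing the data (0.38, exact permutation p = 0.0286). Leaving out each mouse gave 0.24 to 0.30, with adjusted p from 0.0487 to 0.162.

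The letters could not be shown to pair the mice. With the letter as a replicate block by sign flips, whose smallest p is 0.125, the ratio (-1.15) and the pool per length (-0.20) had an exact permutation p of 0.125. The block gave *Tra2a* -0.88 (edgeR adjusted p = 6.99e-04). Leaving out each mouse gave the pool per length -0.23 to -0.17, with an exact permutation p of 0.0571 without *Tra2b-cPEko* C. The ratio per length in wild type was 1.39 with the longest coding transcript and 0.865 with the coding sequence, and in *Tra2b-cPEko* 0.620 and 0.386.

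The 30 genes called became 507 with DESeq2, 123 with no low-count filter, 67 with the replicate block, 58 with upper-quartile factors, 14 with a mean count of at least 50, 12 without robust estimation and 11 with limma-voom, and 3 to 84 when 1 mouse was left out. The cause of these shifts was not tested. *Malat1* stayed between 0.44 and 0.57 and lost its call under 10 of 16 alternatives, 6 of which left out wild type A, B or D or *Tra2b-cPEko* A, B or D. *Tuba3b* stayed between -0.43 and -0.31 and lost its call under 9, 6 of which left out wild type A or D or a *Tra2b-cPEko* mouse.

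Neighbours that were never called had log2 fold changes near 0 whose sign turned: *Fam221a* at 0.0018 with upper-quartile factors, *Malsu1* at -0.0026 with no low-count filter and -0.0092 with limma-voom. With each mouse left out, values ran from -0.054 to 0.0095 for *Fam221a*, -0.081 to 0.14 for *Malsu1*, -0.32 to 0.33 for *Gm15651*,  -0.042 to 0.083 for *Gsdme*, -0.094 to 0.013 for *Map3k13*, -0.11 to 0.0044 for *Senp2* and -0.019 to 0.17 for *Tmem176a*. *Gm7932* passed the count filter in 5 of these fits and ran from -0.15 to 0.25.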
